A study of Mus musculus with 16 samples.

Results

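Immediate early genes are transcribed within minutes of a signal at the cell surface, without prior protein synthesis, and their transcripts are short-lived. In B cells they are induced by antigen receptor and costimulatory signals through the MAPK and calcium pathways. The EGR family (*Egr1*, *Egr2*, *Egr3*) encodes zinc finger factors, the NR4A family (*Nr4a1*, *Nr4a3*) encodes orphan nuclear receptors that report recent antigen receptor signaling, and the AP-1 genes (*Fos*, *Fosb*, *Jun*, *Junb*, *Jund*) encode leucine zipper proteins that bind DNA as dimers. These 10 genes were taken by symbol from the 51912 genes of the deposited table, and all 10 were found. Of them, 7 had a mean of at least 10 normalized counts over the 16 libraries and were tested among 12505 genes. *Egr3*, *Nr4a3* and *Fosb* fell below this level and are described by their values alone.

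The source was germinal center (GC) B cells from the spleen. All groups carried the same reporter allele, cMyc gfp/gfp, a GFP-cMyc fusion expressed from the endogenous locus, on a C57BL/6J background. Male and female mice of 6 to 15 weeks received sheep red blood cells (SRBC) intraperitoneally and were analyzed on day 7. Within B220+ CD38low CD95+ cMycGFP+ cells, 4 subpopulations were sorted, namely prePB (CD69hi), early (CD23hi CD21/35hi), lateCD23int (CD23int CD21/35int) and lateCD23lo (CD23lo CD21/35lo), with 4 libraries each. The labels do not state whether libraries came from separate mice or from pools, so p-values measure the spread between libraries, which may be technical.

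Recovered reads ranged from 19812080 to 25795815 per library, and 1 read was worth 0.827 to 1.08 normalized counts. All 10 GC B cell markers looked up were above the testing level, and their summed normalized count was 98259 to 259002 per library. The sums of 8 T cell markers (12.6 to 452), 8 myeloid markers (1.65 to 1175) and 7 erythroid and platelet markers (228 to 5113) were far lower, and the myeloid markers *Cd14* and *S100a9* had at most 3 reads in every library. For the CD69hi gate, which was set on the surface protein, the *Cd69* transcript was at 3453 ± 1297 normalized counts (SD, n = 4) in prePB and 3762 ± 1766 in lateCD23int. Its means per kb of exon were 530 in prePB, 485 in early, 578 in lateCD23int and 350 in lateCD23lo. The transcript was not called between prePB and the other 3 subpopulations (limma, Benjamini-Hochberg adjusted p = 0.799). Of the plasma cell markers 0 of 6 tested were called there, and 4 of the 6 were higher in prePB (median log2 0.23, beside 0.003 over all tested genes). *Prdm1* was at 35.2 ± 55.9 in prePB and 82.9 ± 51.9 in lateCD23lo. Per kb of exon its means were 6.31 in prePB, 0.491 in early, 14.5 in lateCD23int and 14.9 in lateCD23lo. *Jchain* was lower in early than in lateCD23lo (log2 -1.44, limma adjusted p = 0.0394). That call was lost in 13 of 29 alternatives (adjusted p up to 0.158), among them leaving out any early library. In bulk libraries, fewer cells with a transcript and less transcript per cell cannot be told apart.

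The promoters of *Egr2*, *Junb* and *Fos* are shown because *Egr2* had the lowest p of the members between subpopulations, *Junb* varied with it across libraries, and *Fos* is the classical immediate early gene of the AP-1 family. Serum response factor (SRF) binds the CArG box, and CREB proteins bind the TGACG site. RefSeq promoter windows (GRCm38.p6) were found for 8 of the 10 genes, in 12 windows, and the 250 bases before each annotated start were searched on both strands. No window was found for *Egr1* or *Egr3*. Capitals mark a CArG box, the letters TGACG read on either of the strands, or the TATA box letters TATAAA.
*Egr2*, chr10:67537316-67537565, + strand: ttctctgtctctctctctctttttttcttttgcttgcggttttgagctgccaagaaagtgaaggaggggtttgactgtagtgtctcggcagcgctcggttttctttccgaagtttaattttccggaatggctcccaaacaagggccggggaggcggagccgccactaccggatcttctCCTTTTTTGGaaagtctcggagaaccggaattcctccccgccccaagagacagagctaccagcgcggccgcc
*Egr2*, chr10:67537619-67537868, + strand: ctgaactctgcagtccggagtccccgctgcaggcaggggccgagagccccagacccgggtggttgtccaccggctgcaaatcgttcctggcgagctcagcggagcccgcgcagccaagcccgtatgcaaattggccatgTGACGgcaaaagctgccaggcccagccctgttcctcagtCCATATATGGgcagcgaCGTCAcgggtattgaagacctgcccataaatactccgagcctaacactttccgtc
*Junb*, chr8:84978749-84978998, - strand: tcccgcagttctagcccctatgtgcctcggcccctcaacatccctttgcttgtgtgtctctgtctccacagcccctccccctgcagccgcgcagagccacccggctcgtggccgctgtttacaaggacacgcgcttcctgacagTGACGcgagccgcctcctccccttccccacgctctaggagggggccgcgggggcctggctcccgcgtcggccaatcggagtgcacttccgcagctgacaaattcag
*Fos*, chr12:85473640-85473889, + strand: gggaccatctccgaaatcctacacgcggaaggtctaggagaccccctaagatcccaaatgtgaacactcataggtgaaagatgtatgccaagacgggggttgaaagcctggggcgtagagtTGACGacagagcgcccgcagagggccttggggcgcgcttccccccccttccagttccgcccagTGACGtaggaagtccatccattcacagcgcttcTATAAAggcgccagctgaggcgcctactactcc
A CArG box was found in 1.47% of 32851 promoter windows of this length, and among the 8 genes searched here it stood in windows of *Egr2* alone. Boxes of *Egr1* and *Egr3*, and boxes of any gene beyond these 250 bases, were outside the search. *Egr2* had more windows than any other gene searched. Its window at chr10:67535249-67535498, which covers the gene start at 67535475, held no CArG box. Both *Egr2* windows shown hold one, CCTTTTTTGG and CCATATATGG, with 62 bases between it and the annotated start, and 2 further *Egr2* windows that overlap the second hold the same box. TGACG was found in 17.8% of windows, and it stood in those of *Nr4a3*, *Fosb*, *Junb*, *Egr2*, *Fos* and *Nr4a1*. TATAAA, found in 12.4% of windows, stood in that of *Fos*. The full CREB site TGACGTCA, which holds the shorter one, was in 1.55% of all windows and in none of these 12. The same held for the AP-1 site TGANTCA (6.75% of all windows). It held for the EGR site GCGTGGGCG as well (0.536%). The windows of *Jun* and *Jund* held none of the letters searched, which says only that these letters were not in these bases.

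Per kilobase of exon, *Egr2* had the highest mean level over the 16 libraries at 142 normalized counts per kb, followed by *Jund* at 130.2, *Junb* at 101 and *Egr1* at 78.1. *Nr4a1* (26.6 per kb), *Fos* (21.4) and *Jun* (19.7) formed a lower tier. *Nr4a3* (1.57), *Egr3* (0.913) and *Fosb* (0.478) were far lower. Even the most abundant member was an ordinary transcript in these cells. Per kb of the longest transcript of each gene, *Egr2* stood at percentile 58.2 of the tested genes, *Junb* at 53.8 and *Fos* at 24.1. The order of the genes was not the same in every subpopulation, and in lateCD23lo the mean of *Jund* (137 per kb) was above those of *Egr1* (66.0) and *Egr2* (39.8).

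**Figure D1:**
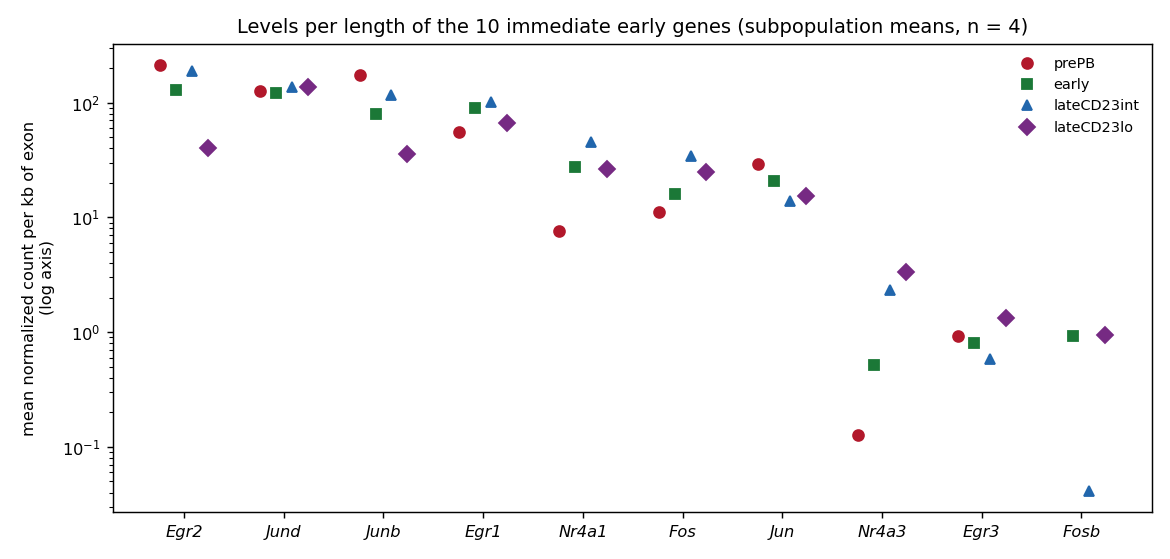
Mean normalized count per kilobase of exon (vertical axis, logarithmic) of the 10 immediate early genes (horizontal axis), with 1 point per subpopulation (n = 4 libraries each). *Jund* points nearly coincide between 121 and 137, *Egr2* and *Junb* are lowest in lateCD23lo at 39.8 and 35.8, and *Fosb* in prePB is at 0 and not drawn.

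*Egr2* (ENSMUSG00000037868, chr10:67535475-67542188, GRCm38, + strand) was highest in prePB and lowest in lateCD23lo by its mean. This EGR factor is induced by antigen receptor signaling and restrains lymphocyte activation. Its normalized counts were 258, 789.8, 948 and 876 in prePB replicates 1 to 4, and 92.7, 73.9, 232 and 142 in lateCD23lo. The lowest prePB library lay above the highest lateCD23lo library, so the groups did not overlap. They were 182, 534, 208 and 815 in early, and 305, 367, 1258 and 644 in lateCD23int. The lateCD23int libraries also did not overlap those of lateCD23lo, whereas the early libraries did. The means were 718 ± 313 (SD, n = 4) in prePB, 644 ± 435 in lateCD23int, 435 ± 299.8 in early and 135 ± 70.9 in lateCD23lo.

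In limma, the *Egr2* difference of prePB from lateCD23lo was 2.38 (log2, SE 0.56, 95% interval 1.19 to 3.56), with an unadjusted p = 0.000512 and a Benjamini-Hochberg adjusted p = 0.0848. This p ranked 74 of 12505 genes, but the adjusted p missed the threshold of 0.05 in this model of subpopulation alone. Between lateCD23int and lateCD23lo the log2 difference was 2.15 ± 0.56 (SE; limma adjusted p = 0.544), and between early and lateCD23lo it was 1.54 ± 0.56 (limma adjusted p = 0.344). The multigroup comparison over the 4 subpopulations gave limma adjusted p = 0.174. The libraries of prePB, lateCD23int and early, neighbors in this order, overlapped, and the prePB against early difference of 0.84 had an interval of -0.35 to 2.02 (limma adjusted p = 0.745; 1.27 without prePB replicate 1 and 0.51 without early replicate 1). The difference of prePB from the mean of the other 3 was 1.15 ± 0.46 (SE; limma adjusted p = 0.357), and 0.59 with the GC score, described next, as a covariate.

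The lowest *Egr2* value in prePB came from replicate 1, and leaving this library out changed the call. Without it, the prePB against lateCD23lo difference was 2.81 and the limma adjusted p was 0.0254, while over all 16 leave-one-out fits the adjusted p ran from 0.0254 to 0.265. Libraries also differed in how GC-rich transcripts were represented. The GC score of a library, the mean centered log2 level of the 1237 tested genes with the most GC minus that of the 1237 with the least, was -0.428 to -0.130 in lateCD23lo, and -0.568, 0.279, 0.637 and 0.931 in prePB. With this score as a covariate, a fit added after the data were seen, the *Egr2* difference was 1.60 ± 0.42 (SE; limma adjusted p = 0.152). Between lateCD23int and lateCD23lo it was then 1.80 ± 0.39 (limma adjusted p = 0.180).

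*Egr1*, a zinc finger factor that is among the fastest genes to respond to receptor signals, had a pattern unlike that of *Egr2*. Its counts were 313, 220.0, 294 and 173 in prePB and 475, 450.4, 263 and 413 in early. They were 469, 442, 636 and 269 in lateCD23int, and 670.3, 159, 261 and 93.8 in lateCD23lo. All prePB libraries lay below 3 of the 4 early libraries and 3 of the 4 lateCD23int libraries, and lateCD23lo held both the highest and the lowest value of all. *Egr1* was at -0.68 ± 0.47 (log2, SE) in prePB relative to early (limma adjusted p = 0.755) and at -0.83 ± 0.47 relative to lateCD23int (limma adjusted p = 0.642), intervals that include 0. Between lateCD23int and lateCD23lo the difference was 0.94 ± 0.47 (limma adjusted p = 0.808; 1.46 without lateCD23lo replicate 1 and 0.52 without replicate 4), and the multigroup adjusted p in limma was 0.626. The lateCD23lo library with the highest *Egr1*, replicate 1, was also the highest of all 16 for *Jund* and had the highest T cell marker sum (452), whose part in these values was not tested. *Egr3*, the third member of the family, had at most 3 reads in 10 of 16 libraries, was at 0 in 6, and reached 21.6 normalized counts (20 reads) in lateCD23lo replicate 1.

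*Nr4a1*, which encodes the orphan receptor Nur77, was at 40.8, 15.7, 7.21 and 43.3 in prePB and at 29.3, 198, 82.8 and 77.6 in early. In lateCD23int it was at 179, 8.14, 303 and 141, and in lateCD23lo at 176, 148, 36.7 and 7.14. The highest prePB value lay below 3 of 4 values in early, 3 of 4 in lateCD23int and 2 of 4 in lateCD23lo, but each of these groups had a library within or below the prePB range. Relative to the mean of the other 3, *Nr4a1* was at -1.70 ± 0.90 (log2, SE) in prePB, with an interval of -3.59 to 0.19 (limma adjusted p = 0.497). The differences were -1.82 ± 1.10 from early and -2.03 ± 1.10 from lateCD23int (limma adjusted p = 0.694 and 0.627), and the second was -3.14 without lateCD23int replicate 2. *Nr4a3*, its paralog, had over 3 reads in 6 libraries. These were 3 of lateCD23int (up to 32.8 normalized counts), 2 of lateCD23lo (up to 73.9, in replicate 2) and 1 of early (5.77), and none of prePB, where the highest value was 2.15.

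*Fos*, the dimer partner of the JUN proteins, varied more between libraries of the same subpopulation than any other tested member. Its counts were 52.7, 0.827, 0 and 50.5 in prePB and 70.2, 46.0, 0.962 and 31.6 in early. They were 98.5, 125, 9.34 and 87.4 in lateCD23int and 2.16, 109, 22.4 and 98.9 in lateCD23lo. At least 1 library in each of prePB, early and lateCD23lo had at most 3 reads, while other libraries of the same group were far above that. The residual SD of *Fos* on the log2 scale was 2.42, at percentile 94.6 of the tested genes, against 0.40 (percentile 29.8) for *Jund*. The prePB against lateCD23int difference was -2.79 ± 1.52 (log2, SE), with an interval from -5.98 to 0.40 (limma adjusted p = 0.627; -1.76 without prePB replicate 3). Against the mean of the other 3 it was -1.99 ± 1.24 (limma adjusted p = 0.568), and -1.26 and -0.97 without prePB replicates 2 and 3. *Fosb*, the other FOS gene, was at 0 in 12 libraries, including all of prePB, and had over 3 reads in 3, with 7.70 and 15.3 normalized counts in early replicates 3 and 4 and 23.7 in lateCD23lo replicate 1.

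*Jun*, the founding JUN gene, was at 118, 72.8, 104 and 78.4 in prePB and at 27.2, 77.0, 114 and 44.2 in early. In lateCD23int it was at 3.98, 22.4, 64.4 and 84.6, and in lateCD23lo at 28.0, 8.42, 48.9 and 111. The prePB libraries were close together and the others were spread over a wide range that reached into that of prePB. The difference from lateCD23int was 1.70 ± 0.89 (log2, SE), with an interval of -0.16 to 3.57 (limma adjusted p = 0.620), and 0.87 without lateCD23int replicate 1, and from the mean of the other 3 it was 1.26 ± 0.73 (limma adjusted p = 0.540). *Jund*, a JUN gene that is transcribed in resting cells and is less inducible, was the steadiest member, at 157 to 317 in prePB, 156 to 235 in early, 174 to 279 in lateCD23int and 163 to 361 in lateCD23lo. Its difference between early and lateCD23int was -0.18, with an interval of -0.94 to 0.59 and a range of -0.30 to -0.06 over fits without 1 library (without lateCD23int replicate 1 and without early replicate 1), and its multigroup limma adjusted p was 0.987.

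*Junb* (ENSMUSG00000052837, chr8:84974484-84978718, GRCm38, - strand), which encodes a partner of BATF in activated lymphocytes, was at 101, 158, 347 and 990.1 in prePB and 56.6, 233, 95.3 and 350.3 in early. It was at 78.6, 95.7, 600.0 and 299 in lateCD23int and 87.3, 114, 79.5 and 49.0 in lateCD23lo. Only the highest lateCD23lo value reached the prePB range, and 2 libraries, prePB replicate 4 and lateCD23int replicate 3, stood above all others. The means were 399 ± 408 (SD, n = 4) in prePB and 82.5 ± 26.8 in lateCD23lo, and the log2 difference was 1.77 ± 0.75 (SE; limma unadjusted p = 0.0299, adjusted p = 0.339). Without prePB replicate 4 it was 1.15, and with the GC score as a covariate it was 0.59 ± 0.46 (SE; limma adjusted p = 0.753). Relative to the mean of the other 3, *Junb* was at 1.06 ± 0.61 (SE) in prePB (limma adjusted p = 0.541), at 0.44 without prePB replicate 4 and at 0.22 with the GC score as a covariate. *Junb* shares 351 bases with the gene *Prdx2* on the other strand, *Jun* shares 689 with *Junos* and *Jund* shares 919 with *Gm11175*. The strand setting of the counting is not given in the sources used here. *Prdx2* was at 3615 to 5821 normalized counts and correlated with *Junb* at r = -0.64 over the 16 libraries, while *Junos* and *Gm11175* had means of 0.747 and 1.61.

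**Figure D2:**
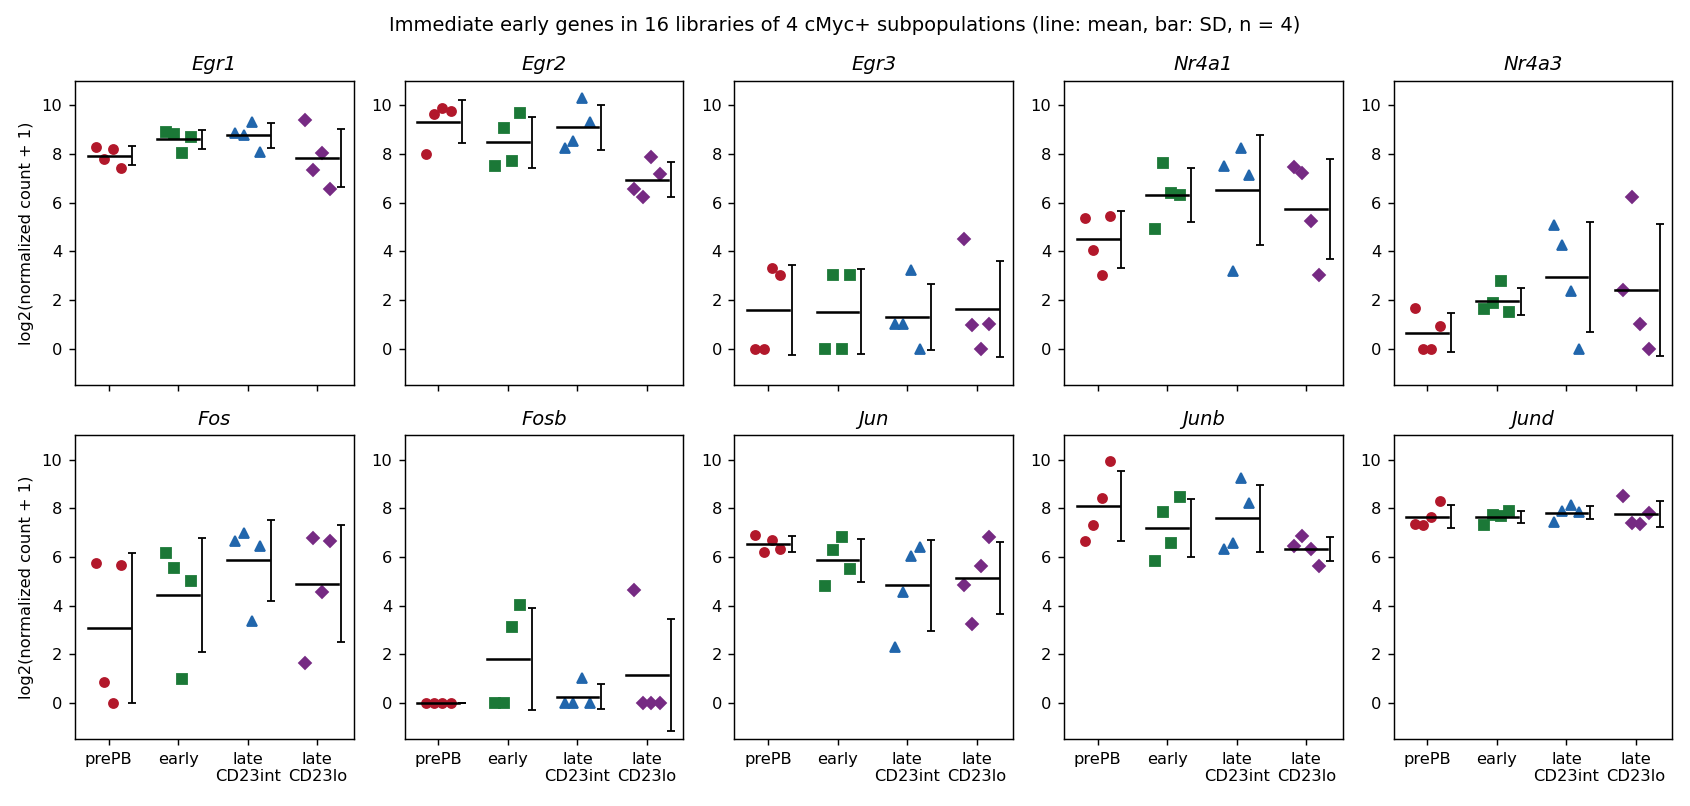
log2(normalized count + 1) of the 10 immediate early genes (vertical axis) in the 4 subpopulations (horizontal axis), with 1 point per library in the order of replicates 1 to 4, the mean as a line and the SD as a bar beside it (n = 4). *Egr2* in prePB sits above lateCD23lo in every library, *Jund* is level, *Fos* is split within groups, and *Egr3*, *Nr4a3* and *Fosb* are mostly at or near 0.

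In the model of subpopulation alone, no tested member was called at an adjusted p under 0.05 in any comparison (limma, Benjamini-Hochberg over 12505 genes), and edgeR on the recovered reads also called 0 with that model. Few genes of any kind were called. Called genes were 0.264% of those tested between prePB and lateCD23lo, 0.192% between prePB and early, 0.144% between prePB and lateCD23int and 0.312% between prePB and the other 3. They were 0.28% between early and lateCD23lo, 0.008% both between early and lateCD23int and between lateCD23int and lateCD23lo, and 0.408% in the multigroup comparison. A count of 0 among 7 genes is near this background.

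At an unadjusted p under 0.05, prePB against lateCD23lo gave 2 of the 7 members, *Egr2* and *Junb*, beside 12.7% of all genes. *Egr2* was the one member at this level between early and lateCD23lo (10.3% of all genes), lateCD23int and lateCD23lo (6.28%), prePB and the other 3 (11.1%) and in the multigroup comparison (10.2%). No member reached it between prePB and early (8.58%), prePB and lateCD23int (8.77%) or early and lateCD23int (3.71%). Of the 7 members, 1 (*Egr2*) had no overlap between prePB and lateCD23lo, beside 6.56% of all tested genes, and the same held between lateCD23int and lateCD23lo, beside 3.77%. No member was without overlap in the other 4 pairs of subpopulations, namely prePB and early (4.23% of genes), prePB and lateCD23int (5.21%), early and lateCD23int (2.48%) and early and lateCD23lo (6.23%). The median log2 difference of the 7 members was 0.10 between prePB and lateCD23lo, 0.72 between early and lateCD23lo and 0.94 between lateCD23int and lateCD23lo, beside -0.01, -0.01 and 0.02 over all tested genes. These 3 comparisons share the lateCD23lo libraries, and leaving out 1 library moved the medians. The first ran from -0.09 (without lateCD23lo replicate 4) to 0.62 (without lateCD23lo replicate 1), and was also below 0 without lateCD23lo replicate 2 or prePB replicate 1. The second ran from 0.36 (without lateCD23lo replicate 4) to 1.04 (without early replicate 1), and the third from 0.52 to 1.32 (without lateCD23lo replicates 4 and 1). The median was 0.01 between prePB and early, -0.16 between prePB and lateCD23int and -0.21 between early and lateCD23int, beside 0.01, -0.02 and -0.03 over all tested genes. Single libraries moved these as well, from -0.21 (without prePB replicate 4) to 0.13 (without prePB replicate 2), from -0.38 to -0.05 (without the same libraries) and from -0.73 to 0.03 (without lateCD23int replicates 2 and 3).

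**Figure D3:**
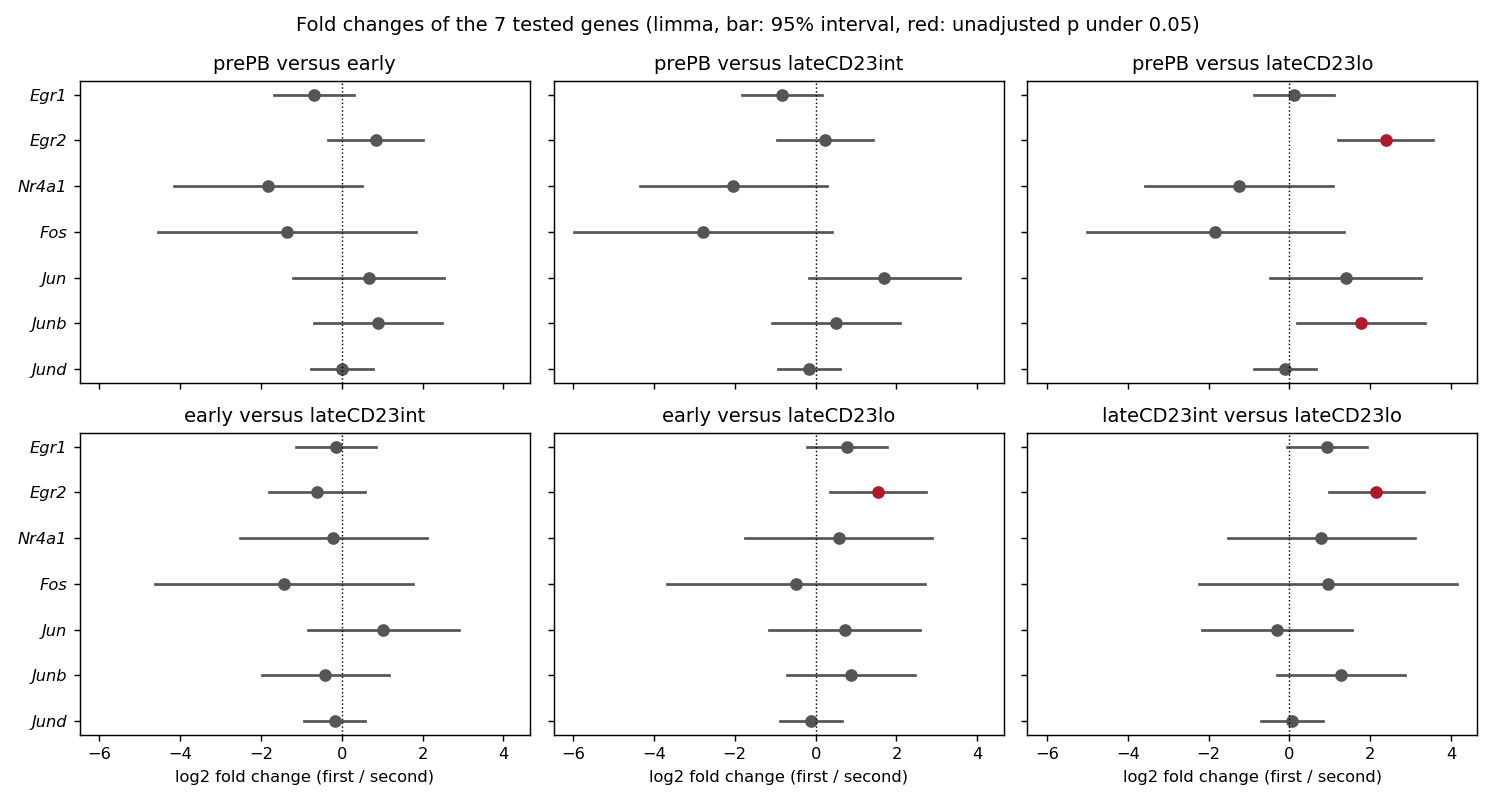
log2 fold changes of the 7 tested genes in the 6 pairs of subpopulations (horizontal axis, first over second), from limma over all 16 libraries with 95% intervals as bars and red points for an unadjusted p under 0.05. The intervals of *Egr2* lie above 0 in the 3 panels with lateCD23lo, that of *Junb* does so between prePB and lateCD23lo, and the widest belong to *Fos*.

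Across the 16 libraries, *Egr2* and *Junb* had r = 0.80 (Spearman 0.81) on the log2 scale, the highest of the 21 pairs among the 7 members. It was 0.74 within subpopulations and 0.84 without the 2 libraries with *Egr2* farthest from its median. The other 20 pairs ran from -0.39 to 0.48 and the median of all 21 was 0.16. *Fos* and *Jun*, whose products pair in AP-1, were at r = -0.39, and *Egr1* and *Egr2* at 0.19. These are descriptions over libraries that share the subpopulation, the replicate number and library properties.

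One such property is the GC score, by which the libraries fell into 9 with scores below 0 and 7 with scores of 0.279 or more. The correlation of *Egr2* and *Junb* took different values in the 9 and in the 7, and the difference between them was not tested. Within the 9 libraries *Egr2* and *Junb* were at r = -0.03 (Spearman 0.03), and within the 7 at 0.55 (Spearman 0.71). With the score itself, *Junb* was at r = 0.92 over all 16 libraries (Spearman 0.85, 0.92 within subpopulations), at 0.18 within the 9 and at 0.90 within the 7. *Egr2* was at 0.74 over all 16 (Spearman 0.68, 0.80 within subpopulations), but at -0.70 within the 9 and at 0.32 within the 7. The 9 hold all lateCD23lo libraries and also all libraries numbered 1, whose scores were -0.702 to -0.358. Subpopulation, replicate number and score are therefore mixed in this split, and their parts were not tested. After a straight-line fit on the score, *Egr2* and *Junb* correlated at 0.46.

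The other members were at r = 0.46 (*Jun*), 0.44 (*Jund*), 0.13 (*Nr4a1*), -0.14 (*Egr1*) and -0.26 (*Fos*) with the GC score. The GC content of the transcripts was 67.1% for *Jund*, 62.6% for *Junb*, 57.3% for *Egr1*, 57.0% for *Nr4a1*, 55.5% for *Jun*, 51.9% for *Fos* and 51.4% for *Egr2*. In all, 63 relations of the 7 members with 9 library measures were computed. The summed heat shock genes were at r = -0.73 with *Egr1*, -0.69 with *Nr4a1* and -0.61 with *Jund* (Spearman -0.73, -0.75 and -0.60), and at -0.59, -0.54 and -0.68 without the 2 farthest libraries. With *Junb* they were at -0.50 (Spearman -0.38, -0.24 without the 2 farthest). Within this sum *Hspa1a*, *Hspa1b* and *Hspb1* were at 1.96, 0.734 and 1.21 normalized counts per kb, against 38426 for *Hsp90ab1*. *Jun* was at -0.58 with the mitochondrial percentage (Spearman -0.10, 0.12 without the 2 farthest). With the summed GC B cell markers *Jun* was at -0.56 (Spearman -0.39, -0.28 without the 2 farthest). The summed myeloid markers were at 0.62 with *Fos* (Spearman 0.31), but at 0.27 without the 2 farthest libraries, so that relation rested on those. The summed erythroid and platelet markers were at 0.55 with *Fos* (Spearman 0.56, 0.41 without the 2 farthest). The summed GC B cell markers were at 0.55 with *Egr1* (Spearman 0.70, 0.55 without the 2 farthest) and at -0.52 with *Junb* (Spearman -0.58, -0.61 without the 2 farthest). With *Egr2* the heat shock and myeloid sums were at -0.34 and -0.17. The summed GC B cell markers were at -0.47 with *Egr2* (Spearman -0.42, -0.51 without the 2 farthest). Summed plasma cell markers were at -0.48 with it (Spearman -0.46, -0.44 without the 2 farthest). The part of the GC score, of these sums and of the mitochondrial percentage in the values of the members was not tested beyond the covariate fits given above.

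**Figure D4:**
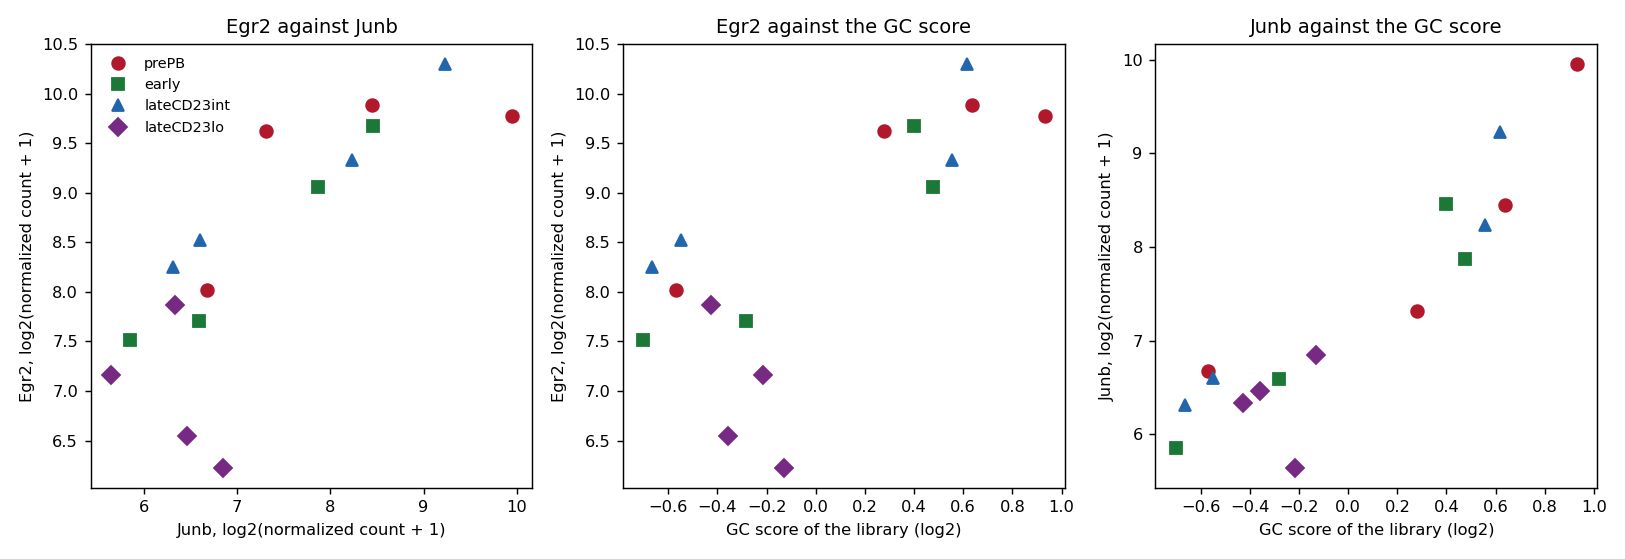
*Egr2* against *Junb* (left), *Egr2* against the GC score of the library (middle) and *Junb* against the GC score (right), as log2(normalized count + 1), with 1 point per library and 1 symbol per subpopulation. The 7 libraries with scores above 0 hold the highest *Egr2* and *Junb* values, and all 4 lateCD23lo libraries are among the 9 with scores below 0, 3 of them lowest of all for *Egr2*.

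The 5 genes whose log2 levels followed the mean z-score of the 7 members most closely, among 8665 other genes with a mean of at least 100, were *Acly* (r = 0.89), *Tln1* (0.89), *Ubtf* (0.88), *Bcar3* (0.86) and *S1pr3* (0.85). *Acly* makes cytosolic acetyl-CoA, and *Tln1* links integrins to actin. These genes themselves correlated with the GC score at 0.61 to 0.83, and the mean z-score of the members did so at 0.68.

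By replicate number, *Egr2* had a limma adjusted p = 0.192 (unadjusted p = 0.0221), the single member under 0.05 before adjustment, beside 17.7% of all genes, while 3.14% of all genes and no member were called. Its means were 209 over the 4 libraries numbered 1, and 441, 662 and 619 over those numbered 2, 3 and 4. The lowest and highest means of *Junb* were 80.9 (number 1) and 422 (number 4) (limma adjusted p = 0.375), and those of *Egr1* were 237 (number 4) and 482 (number 1) (limma adjusted p = 0.333). *Fos* was at 8.18 in libraries numbered 3 and 55.9 to 70.1 in the others (limma adjusted p = 0.299).

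Genes around these families gave few calls. Over all tested genes, at most 0.408% were called in any comparison of subpopulations. These lists were chosen with earlier results of these data known, so the counts of calls are no result about the lists. Of the 11 other genes of the same families, 4 were tested, and *Batf*, an AP-1 factor of activated B cells, was higher in prePB than in the other 3 by 1.26 ± 0.15 (log2, SE; limma adjusted p = 0.000562), at 5987 ± 904 normalized counts (SD, n = 4) against 1931 ± 195 in lateCD23lo. *Batf* was also called against lateCD23int and lateCD23lo separately (limma adjusted p = 0.00666 and 0.000225), and against early the adjusted p was 0.0519. *Batf3* and *Mafk* were not called (limma multigroup adjusted p = 0.754 and 0.827), and *Egr4*, *Atf3* and *Batf2* had at most 3 reads in every library. Of 18 further immediate early genes, 17 were tested and 1 was called between subpopulations, *Klf2*, a factor of resting lymphocytes. It was at 79.3 ± 49.7 in early and 3.15 ± 3.12 in lateCD23lo, where 2 libraries had at most 3 reads (limma adjusted p = 0.0394). This call was lost in 15 of 28 alternatives (adjusted p up to 0.141), among them leaving out any early library. *Btg1* and *Cd69* from this list were called by replicate number (limma adjusted p = 0.00225 and 0.00454), and by subpopulation they were not (multigroup adjusted p = 0.401 and 0.687).

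The factors that switch immediate early genes on gave no call among 11 tested genes for SRF, ternary complex and CREB factors, and the lowest multigroup limma adjusted p were 0.232 for *Mef2c*, 0.596 for *Mkl2* and 0.652 for *Elk4*. Among 16 tested MAPK and feedback genes none was called either, with limma adjusted p = 0.452 for *Mapk14*, 0.522 for *Mapk3* and 0.524 for *Spred1*. In prePB against the other 3, 0.312% of all tested genes were called in either direction. Of 9 tested genes linked to EGR or NR4A factors, 2 were lower in prePB than in the other 3. These were *Nfkbid*, which encodes a nuclear IκB protein, at -1.69 ± 0.30 (log2, SE; limma adjusted p = 0.0107), and *Id3*, an inhibitor of E proteins, at -1.09 ± 0.22 (limma adjusted p = 0.0352). The call of *Id3* was lost in 13 of 28 alternatives (adjusted p up to 0.190, without prePB replicate 4), and that of *Nfkbid* in 2 (without prePB replicate 2 or 3, adjusted p up to 0.0685). *Id3* was also called by replicate number (limma adjusted p = 0.0246). *Nfkbid* was at 313, 90.1, 124 and 156 in prePB and at 912, 649, 481 and 549.7 in lateCD23lo. Per kb of exon its means were 274 in lateCD23int and 276 in lateCD23lo. *Nfatc1*, a calcium-dependent factor that acts with AP-1, was lower in early than in lateCD23lo by a log2 difference of -1.27 ± 0.26 (limma adjusted p = 0.0476), a call lost in 18 of 29 alternatives (adjusted p up to 0.168), among them leaving out any lateCD23lo library. None of 9 tested heat shock genes was called, and the lowest multigroup limma adjusted p was 0.305, for *Hspa5*.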

How the data were processed

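RNA of 4 sorted subpopulations was sequenced on a HiSeq4000 after the NEBNext Single Cell/Low Input kit, 4 libraries each. The submitters' processing notes list Trimmomatic 0.36, STAR 2.5.2a, RSEM 1.2.31, DESeq2 1.20.0 and R 3.5.1, and GRCm38. The deposited values are a signal: the authors divided the counts of each library by its size factor. Values were multiples of what 1 read is worth in their library, and 100% came out as whole reads (tolerance 0.01). All columns were used. After adding a pseudocount of 1 and taking log2, the 12505 genes whose mean reached 10 were fitted in limma 3.58.1 (R 4.3.3, with trend) as 1 model of the 16 libraries, and p-values were adjusted by Benjamini-Hochberg. The pseudocount makes changes of low genes look smaller than they are. Recovered reads were also tested by quasi-likelihood in edgeR 4.0.16, and both were checked on simulated counts. PCR copies cannot be told from separate molecules here, so the limit of 3 reads covers counting error only. The members and gene lists were chosen with earlier results of these data known. Genes named outside the members are those with an adjusted p under 0.05, filled up to 3 per list by the multigroup p, and the 5 most like the mean z-score of the members. Of these, genes of the marker lists and those called by replicate number are given only where a result touches them. Gene models are from GENCODE (GRCm38), in which 12471 tested genes were matched. The alternatives were other pseudocounts, filters, scalings, no trend, a replicate block, only the groups compared, edgeR and leaving out each library.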

Additional observations from a re-analysis of the deposited data

Results flagged for a closer look

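In groups of 4 libraries, 5 of 40 groups of member values held a library set apart from the other 3 by most of the range. All 5 were of the low genes that were not tested. The cutoff flags about 1 in 20 groups of normally distributed values. That rate does not hold where most counts are at or near 0, so no excess can be read from the 5. *Egr3* was at 8.30 normalized counts in lateCD23int replicate 3 (next 1.02) and at 21.6 in lateCD23lo replicate 1 (next 1.02). *Nr4a3* was at 73.9 in lateCD23lo replicate 2 (next 4.31). *Fosb* was at 1.04, or 1 read, in lateCD23int replicate 3 and at 23.7 in lateCD23lo replicate 1, with the other 3 libraries at 0. The lateCD23lo replicate 1 library also had the highest *Egr1* (670.3) and *Jund* (361) of all 16 and the highest summed T cell markers (452), and the part of these in its values was not tested.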

How the results depend on the processing

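None of the 18 log2 differences of members given in the report changed sign in any of the alternatives run. The counts of members called stayed at 0 in all comparisons except as follows. With the replicate number as a block, 1 member, *Egr2*, was called between prePB and lateCD23lo in limma (adjusted p = 0.0146) and in edgeR (1 member, adjusted p = 0.0211), and 1 in the multigroup comparison in limma. Leaving out 1 library at a time gave 0 to 1 members between prePB and lateCD23lo (1 without prePB replicate 1) and 0 to 1 by replicate number (*Egr2*, without early replicate 3). With the block and the GC score as a covariate together, added after the data were seen, *Egr2* was at 1.76 between prePB and lateCD23lo (limma adjusted p = 0.129) and *Nr4a1* at -3.09 in prePB against the other 3 (limma adjusted p = 0.0934).

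The labels do not say that a number marks a shared animal or day. Deviations of same-numbered libraries from their subpopulation means correlated at -0.129 to 0.174 (mean 0.0509, 5 of 24 pairs over 0.1), against a mean of -0.0166 for other pairs (4 of 72 over 0.1). Over genes with a mean of at least 1000 the means were 0.259 (17 of 24 over 0.1) and -0.0813 (22 of 72). Over these abundant genes the pairs numbered 1 ran from 0.456 to 0.701 and those numbered 4 from 0.209 to 0.527. Pairs numbered 2 ran from -0.282 to 0.453 and those numbered 3 from -0.592 to 0.471. The rule was that every same-numbered pair be over 0.1, which neither measure met, so the numbers were not treated as a pairing. A link between libraries numbered 1, or between those numbered 4, is not excluded by this rule. By replicate number 393 of 12505 genes were called in limma, beside 51 in the multigroup comparison. Over all genes the block raised the calls from 51 to 173 in the multigroup comparison, from 33 to 192 between prePB and lateCD23lo, from 24 to 65 between prePB and early, from 18 to 121 between prePB and lateCD23int, from 35 to 90 between early and lateCD23lo and from 39 to 211 between prePB and the other 3. Without prePB replicate 1, 153 genes were called between prePB and lateCD23lo. With edgeR without the block the multigroup count was 29, with no trend 25 and without a filter 31. The call of *Batf* was kept in all alternatives. At 4 libraries a group, the 95% intervals of the members between pairs of subpopulations are 1.53 (*Jund*) to 6.38 (*Fos*) log2 units wide, and *Fos*, *Jun* and *Nr4a1* in single libraries rest on 10 reads or fewer.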
